A study of Homo sapiens with 9 samples.

Results

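The regions described here are the places on chromosomes 1 to 22 and X where a ChIP-seq peak of the transcription factor NKX2-1 was listed in the lung adenocarcinoma cell line NCI-H2087 and in neither of the other lines studied. Peaks of the 4 NKX2-1 lists were merged where they overlapped by at least 1 bp. The members were chosen by the presence and absence of called peaks alone: a merged region was kept where it held a peak of the H2087 list and no peak of the H1819 list or of either H3122 list. Of 59679 merged regions, 13997 held an H2087 peak and 4339 were found in H2087 only. These are 7.27% of all merged regions and 31.0% of those with an H2087 peak. Each of the 4339 consisted of 1 H2087 peak.

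The study mapped NKX2-1 in NCI-H2087, NCI-H1819 and NCI-H3122, established lines that the series describes as carrying extra copies of the NKX2-1 gene. All 4 NKX2-1 libraries used the Bethyl Laboratories antibody BL4000, and another library mapped FOXA1 in H3122 with the Abcam antibody ab23738. The lines were grown in RPMI1640 with serum and received no treatment that the labels record. H3122 had 2 NKX2-1 libraries, called replicates 1 and 2 here, and H2087 and H1819 had 1 each, so that a difference between H2087 and another line is a difference between libraries. Each line is a single model, and H2087 occupancy has no replicate check.

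NKX2-1, or TTF-1, belongs to the homeodomain factors. It specifies lung and thyroid epithelium and stays active in alveolar type 2 and club cells, where it drives surfactant and secretoglobin genes. FOXA1 is a forkhead factor that can bind its sites in closed chromatin and opens enhancers in lung, liver and other endodermal tissues. A transcription factor occupies only part of its possible sites in any cell, and the set depends on which chromatin is open and which partner factors are bound. Lines of one tumour type therefore commonly share a core of sites and differ at others.

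The 5 lists held 7469 and 48071 NKX2-1 peaks in H3122 replicates 1 and 2, 13486 in H1819, 14441 in H2087 and 42437 FOXA1 peaks in H3122. Replicate 2 stands apart by its length, and it decides the membership. Without it 10173 regions were found in H2087 only, and without replicate 1 there were 4388. The number of reads behind each list is unknown, so absence from a list means that no peak was called there and not that NKX2-1 was absent.

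H2087-only regions were mostly modest peaks, with a small number among the strongest of the list. The deposited score, the authors' value for each peak, was taken to be on the scale of the peak caller MACS, the negative log10 of the p-value multiplied by 10, which no source used here states. Among the members it ran from 60.04 to 3100, with a median of 104 and quartiles of 72.5 and 184. The H2087 list itself reached 3208, and 73 of its peaks scored at least 3100. The other 10095 H2087 peaks had a median score of 182. Of the members, 2250 or 51.9% scored at least 100, 264 at least 500 and 84 at least 1000. Among the 9658 H2087 regions shared with another line, 76.4% held an H2087 score of at least 100, 1848 reached 500 and 713 reached 1000. The rule used presence in this list, so these scores describe the members and test nothing.

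The share of H2087 peaks that were found in no other line fell steadily with score. In the lowest decile of the list, at scores of 60.02 to 67.02, 719 of 1444 peaks were members, or 49.8% (95% Wilson interval 47.2 to 52.4). In decile 5 the share was 33.1%, and in the highest, at scores of 664 and above, 166 of 1444 peaks were members, or 11.5% (9.95 to 13.2). The H1819 list, classed in the same way, started at the same level and fell less. There 50.6% of peaks in decile 1 and 35.4% (32.9 to 38.0) in decile 10 were found in H1819 only. Wilson intervals here and below cover counting error only, since peaks of a library are not replicates. The difference between the H2087 and H1819 curves was not tested.

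**Figure D1:**
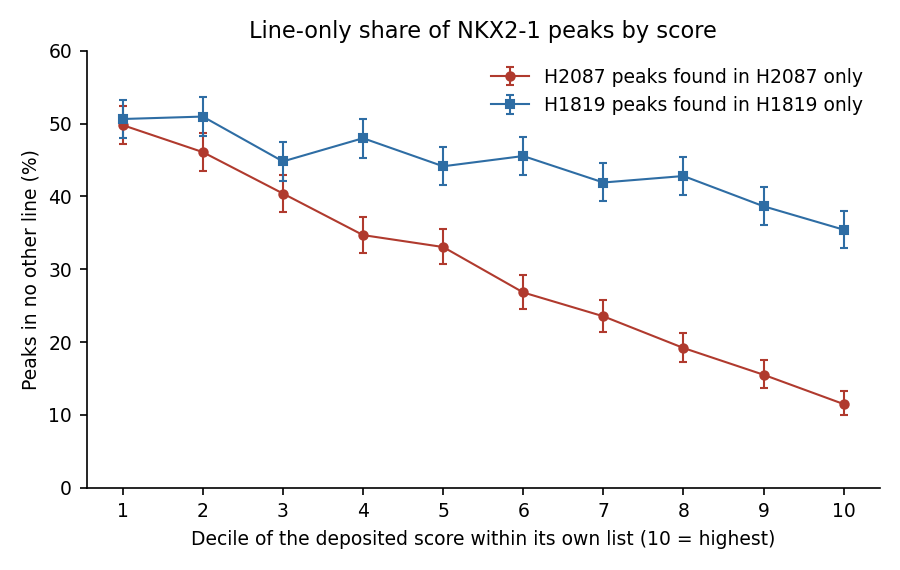
Share of peaks found in no other line (vertical axis, percent) by decile of the deposited score within each list (horizontal axis), for the H2087 and H1819 NKX2-1 lists; bars are 95% Wilson intervals. The H2087 share falls from 49.8% to 11.5% and the H1819 share from 50.6% to 35.4%.

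The members were narrower than the other H2087 peaks, with a median width of 469 bp against 657 bp. At like scores the widths were close. In the lowest decile the medians were 300 bp for members and 311 bp for the other peaks, and in the highest 1305 and 1346 bp. H1819-only regions had a median width of 461 bp. Member widths ran from 155 to 2769 bp.

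The strongest members were broad. The distance from the first 10 to the nearest NKX2-1 peak of another line ran from 603 bp to 195 kb. Over all members the median of this distance was 7.88 kb, and 54.4% lay within 10 kb. The 10 with the highest scores are given in hg18 coordinates. A tie at a score of 3100 was held by regions in 10q25.2 (chr10:112260916-112263336), 12p13.33 (chr12:892809-895155) and 5q35.2 (chr5:174605078-174606916). They were 2421, 2347 and 1839 bp wide. The nearest NKX2-1 peak of any other list lay 9.48 kb, 33.5 kb and 41.0 kb away, in that order. Regions in 9q22.33 (chr9:100785244-100786835, score 3085) and 4p16.1 (chr4:9791308-9792882, score 3082) followed, with the nearest other peak at 13.99 and 63.3 kb. The sixth, in 5q35.1 (chr5:170954862-170957025), scored 2886 and lay 16.98 kb from an H3122 replicate 2 peak and 967 kb from one of replicate 1.

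The most isolated of these 10 was in 16p13.2 (chr16:10173731-10175070, score 2831). No NKX2-1 peak of another line was listed within 195 kb of it, although an H3122 FOXA1 peak lay 8.12 kb away. At the other extreme, the region in 14q12 (chr14:31532206-31534620, score 2639) lay 603 bp from an H3122 replicate 2 peak and 566 bp from a FOXA1 peak. The region in 16p12.3 (chr16:18919694-18921128, score 2716) had an H3122 peak 1497 bp away in replicate 2 and 1.81 kb away in replicate 1. The ninth, in 1q25.3 (chr1:180355476-180357092), scored 2693 and lay 17.6 kb from the nearest other peak, which was one of H1819. None of the 10 overlapped a FOXA1 peak; with 8.32% of all members and 13 of the 166 in the highest score decile overlapping one, a count of 0 in 10 says nothing particular about them. Genes at these positions were not determined.

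Members often lay close to NKX2-1 peaks of another line without touching them. The nearest peak of any other NKX2-1 list was at a median distance of 7.88 kb, with quartiles of 1.94 and 23.5 kb. It lay within 1 kb for 725 members, or 16.7% (15.6 to 17.8), and within 10 kb for 2362, or 54.4%. Just 130, or 2.996%, had no such peak within 100 kb. For H1819-only regions, measured against the other 3 NKX2-1 lists, the median was 15.4 kb, 8.79% (8.10 to 9.54) lay within 1 kb and 9.85% had none within 100 kb. Most of this proximity was to the long H3122 replicate 2 list, which lay within 1 kb of 661 members, or 15.2% (14.2 to 16.3), against 7.90% (7.25 to 8.62) of H1819-only regions. H1819 peaks lay within 1 kb of 180 members, or 4.15%, and replicate 1 peaks within 1 kb of 105, or 2.42%. The 5971 regions found only in H1819 lay at a median of 166 kb, and 28 members had one within 1 kb. None of these distances was adjusted for the number of peaks or regions in the list measured against.

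**Figure D2:**
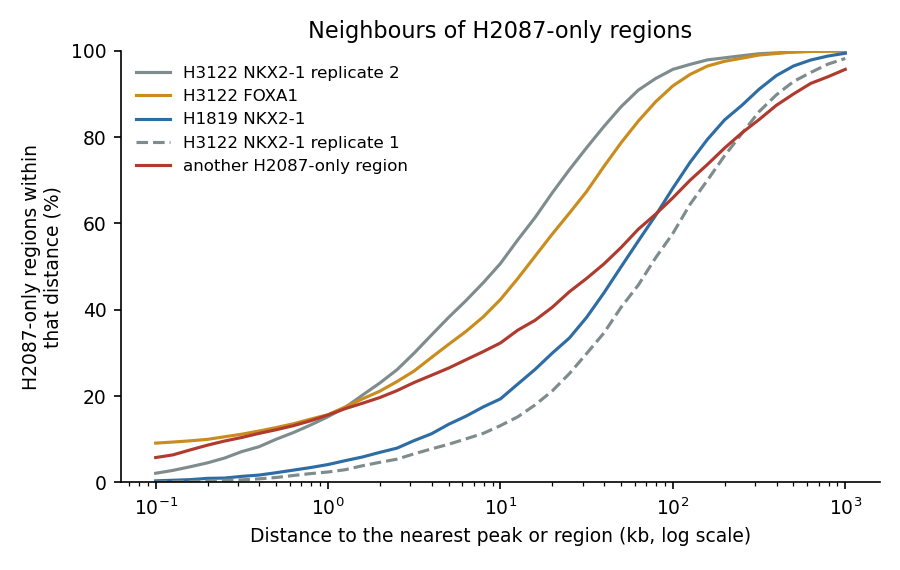
Cumulative share of the 4339 H2087-only regions (vertical axis, percent) that lie within a given distance (horizontal axis, kb, log scale) of the nearest peak of each other list or of another member. Within 10 kb, 50.7% have an H3122 replicate 2 peak, 42.4% an H3122 FOXA1 peak, 32.3% another member, 19.4% an H1819 peak and 13.2% a replicate 1 peak.

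The border of the rule was thinly populated. The member closest to another list lay 4 bp from a replicate 2 peak, in 11q14.1 (chr11:85016013-85016809, score 181). Another in 4q32.3 (chr4:170274376-170274736, score 84.5) was equally close. Members in 6q22.32, 5p15.2 and 1q21.3 followed, at 5, 7 and 8 bp, with scores of 62.6, 62.6 and 86.0. On the other side, the H2087 peak with the smallest overlap was in 17q12 (chr17:34871603-34871896, score 61.2), with 2 bp shared. Peaks in 1p22.1 and 1q23.1 shared 3 bp, one in 12q21.2 4 bp and one in 19q13.33 7 bp. Altogether 105 members lay within 100 bp of another list, and 86 H2087 peaks were left out through an overlap of 100 bp or less. The shared H2087 peaks were covered by other lists over a median of 94.3% of their length.

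FOXA1, as mapped in H3122, was listed at few of the H2087-only regions. A FOXA1 peak overlapped 361 of the 4339, or 8.32% (7.53 to 9.18), while 39.7% of all merged NKX2-1 regions, 32.5% of all regions with an H2087 peak and 7.02% of all regions without an H3122 NKX2-1 peak had one. Since the rule removed every region with an H3122 NKX2-1 peak, and FOXA1 was mapped in that line, the low share goes with the choice of members. The 7.02% is the background to read it against, although it includes the members, which gave 361 of its 742 regions with FOXA1. FOXA1 occupancy in H2087 was not measured. The 8.32% rested on replicate 2. Without it as a bar to membership the share was 26.1%, and with lists cut to the best 7467 peaks each it was 26.6%.

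H2087-only regions carried an H3122 FOXA1 peak more often than H1819-only regions, by a small margin. The shares were 8.32% of 4339 and 6.08% of 5971, a difference of 2.24 percentage points (Newcombe interval 1.23 to 3.28; Fisher's exact test, two-sided, p = 1.42e-05). Matched on region width, the difference was 2.11 points (Cochran-Mantel-Haenszel chi-square test, p = 3.94e-05). H2087-only regions had the higher share in every width quintile, but unevenly. From narrowest to widest the shares were 6.93% against 5.89%, 8.20% against 6.24%, 7.99% against 5.29%, 7.10% against 6.70% and 10.6% against 6.29%. The difference was smaller, at 1.02 points (0.0951 to 1.96, Fisher's exact p = 0.0308), where the midpoint of a region had to lie in the FOXA1 peak. It was 1.32 points where FOXA1 peaks had to score at least 100. With lists cut to the best 7467 peaks it was largest, at 7.36 points. These tests compare regions of 1 library per line and treat regions as independent. Many regions lie close to others of their class, so that the p-values are likely too small and the intervals too narrow. The 257 regions shared by H2087 and H1819 and not found in H3122 had FOXA1 in 18 cases, or 7.004%. The difference of the members from these was 1.32 points (-2.56 to 3.99, Fisher's exact p = 0.559), an interval that leaves room for a difference of several points in either direction.

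FOXA1 overlap within the members varied little with the NKX2-1 score compared with the shared peaks, and a trend was not tested. It was 6.82% (5.19 to 8.90) in the lowest decile of the H2087 list, 12.5% (8.79 to 17.5) in decile 9 and 7.83% (4.63 to 12.9) in the highest, with values of 6.79% to 9.43% in the deciles between the lowest and decile 9. Among the shared H2087 peaks it rose from 31.2% to 64.9% over the same deciles. H1819-only regions had 5.71% in decile 1, 6.14% (4.38 to 8.54) in decile 9 and 4.81% in decile 10 of their own list.

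**Figure D3:**
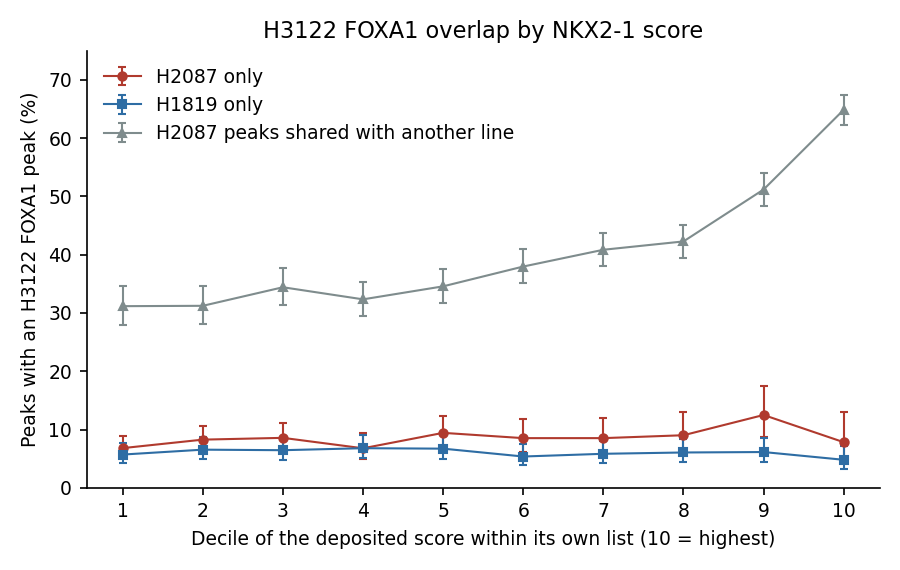
Share of peaks that overlap an H3122 FOXA1 peak (vertical axis, percent) by decile of the NKX2-1 score within the list (horizontal axis), for H2087-only, H1819-only and shared H2087 peaks; bars are 95% Wilson intervals. The shared peaks rise to 64.9% and the members stay between 6.79% and 12.5%.

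The 361 members with FOXA1 differed little from the rest in NKX2-1 score, with medians of 115 and 103. Their median widths were 494 and 466 bp. An H3122 replicate 2 NKX2-1 peak was nearer to them, at a median of 5.97 kb against 9.86 kb for members without FOXA1. The FOXA1 peaks on members were of ordinary strength for FOXA1 peaks without NKX2-1. Their median score was 109, compared with 99.6 for all FOXA1 peaks without an H3122 NKX2-1 peak and 207 for those on one. The highest-scoring member with FOXA1 was in 11q24.3 (chr11:127582503-127584290), with an NKX2-1 score of 1493 and a FOXA1 score of 111. All 3 other NKX2-1 lists had peaks near it, at 0.832, 1.33 and 1.10 kb in H3122 replicate 2, replicate 1 and H1819. Next came 7p22.2 (chr7:3278604-3279882), with scores of 1461 and 199, where the nearest other NKX2-1 peak was 27.5 kb away. Regions in 12q14.3, 5q35.1 and 7q31.1 completed the 5 highest, with NKX2-1 scores of 1385, 1184 and 1082 and FOXA1 scores of 81.97, 78.1 and 219.

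H2087-only regions lay mainly in the lightly staining parts of the chromosomes. Giemsa staining divides chromosomes into light bands, which are on the whole rich in genes and in G and C bases and replicate early, and dark bands, which are poorer in genes. Unstained bands make up 42.4% of the length analysed. They held 2681 members, or 61.8% (60.3 to 63.2), against 50.7% of all merged NKX2-1 regions, 48.2% of H1819-only regions and 57.8% of H2087 regions shared with another line. The difference from H1819-only regions was 13.6 percentage points (11.6 to 15.5; Fisher's exact p = 1.58e-42) and from the shared H2087 regions 3.98 points (2.23 to 5.72; p = 9.71e-06). Neighbouring regions share a band, so that these p-values, which treat regions as independent, are too small. The first difference was 13.5 points when regions were matched on chromosome.

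Relative to the mean density of the class, members were 1.46-fold enriched in unstained bands and 1.60-fold in the lightest stained class, and were at 0.507 and 0.304 of it in the 2 darkest classes. H1819-only regions were spread more evenly, at 1.14, 1.36, 0.951 and 0.857 in the same classes. Shared H2087 regions lay between these at 1.36, 1.67, 0.702 and 0.399, except in the lightest stained class, where they were highest. FOXA1 peaks were nearly even, at 1.09, 1.05, 1.12 and 1.03. The light-to-dark ratio was also computed within each of 21 chromosomes, as density in unstained and lightest bands over that in the 2 darkest classes. Its median was 3.62 for members, 2.39 for shared H2087 regions and 1.32 for H1819-only regions. It was higher for members than for H1819-only regions on 21 of 21 chromosomes, and higher than for shared H2087 regions on 18.

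**Figure D4:**
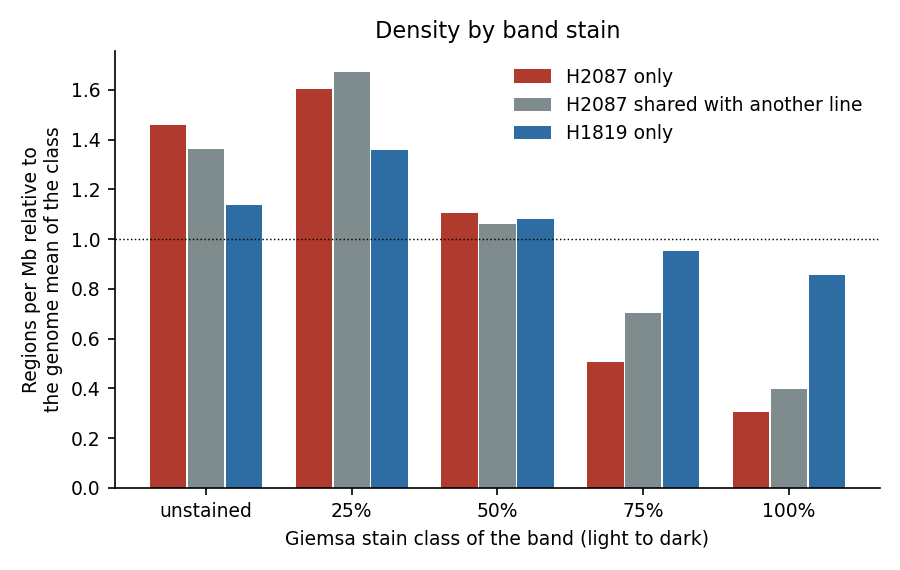
Density of regions relative to the genome mean of their own class (vertical axis) in Giemsa stain classes from unstained to darkest (horizontal axis); the dotted line marks the mean. H2087-only regions fall from 1.46 in unstained bands to 0.304 in the darkest, and H1819-only regions from 1.14 to 0.857.

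Members of every score decile lay in unstained bands more often than the 42.4% that these bands take of the length, with shares of 57.6% to 65.0%. Unstained bands held 61.9% (58.3 to 65.4) of members in the lowest score decile and 59.6% (52.0 to 66.8) in the highest. Shared H2087 peaks had 54.9% and 57.0% there. The excess of members over shared peaks was uneven. In decile 3 the shares were 65.0% and 57.8%, in decile 5 58.1% and 58.5%, in decile 8 59.6% and 59.5% and in decile 9 57.6% and 57.2%. Matched on H2087 score, the difference between members and shared regions, pooled over 5 score classes, was 3.82 points (Cochran-Mantel-Haenszel chi-square test, p = 4.56e-05). The share changed little with distance from other lists up to 100 kb, at 63.0% (59.5 to 66.5) of the 725 members within 1 kb, 61.8% of the 1637 at 1 to 10 kb and 62.3% of the 1847 at 10 to 100 kb. Of the 130 members with no other NKX2-1 list within 100 kb, 46.9% (38.6 to 55.5) lay in unstained bands.

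By chromosome, members were densest on 17 and 19 and sparsest on X. Density relative to the mean was 2.15 on chromosome 17 with 243 members, 2.07 on 19 with 190, 1.77 on 20 with 159, 1.57 on 16 with 200 and 1.49 on 10 with 290. It was 0.310 on X with 69 members, 0.467 on 18, 0.507 on 13 and 0.557 on 4. Chromosome 16 set H2087 and H1819 apart, since H1819-only regions were at 0.541 of their mean there. The densest and sparsest chromosomes were largely those of all H2087 regions. Members were 33.9% of H2087 regions on 17, 33.7% on X, 26.2% on 18 and 29.2% on 13, against 31.0% over all chromosomes. The share of H2087 regions that were members ranged from 25.7% (22.3 to 29.3) on chromosome 4 to 39.2% (34.5 to 44.0) on 20. It was also high on 16 at 38.2% (34.2 to 42.5) and on 10 at 38.2% (34.8 to 41.7), and was 29.1% (25.7 to 32.7) on 19, where members were dense. These lists carry no measure of copy number, and its part in the chromosome pattern was not tested.

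**Figure D5:**
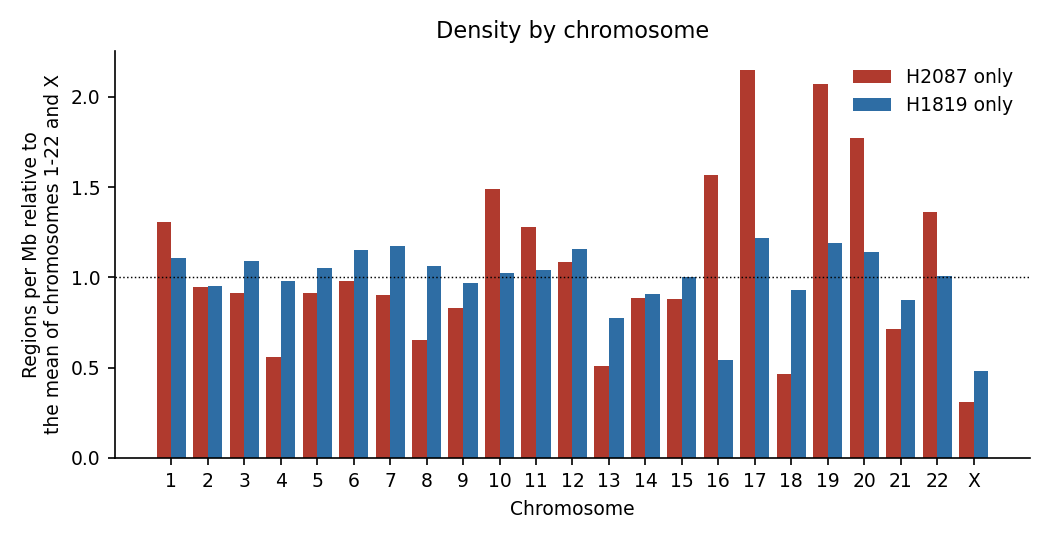
Density of H2087-only and H1819-only regions on each chromosome (horizontal axis) relative to their mean over chromosomes 1 to 22 and X (vertical axis); the dotted line marks the mean. H2087-only regions range from 0.310 on X to 2.15 on 17, and H1819-only regions from 0.484 on X to 1.22 on 17.

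Many members had another member close by. Of the 4339, 1150 or 26.5% (25.2 to 27.8) had another member within 5 kb, compared with 21.5% (20.5 to 22.5) among H1819-only regions. For 678 it lay within 1 kb and for 250 within 100 bp, or 15.6% and 5.76%. Among H1819-only regions these shares were 10.8% and 2.46%. Peaks that did not overlap were counted as separate members, however small the gap. Joined at gaps of up to 5 kb, the members formed 3189 single regions, 450 pairs and 78 groups of at least 3. Windows of 1 Mb held 1.44 members on average, and 33 windows held at least 10, with 403 members between them. The 2 densest windows had 20 members each. On chromosome 11 from 65 to 66 Mb (11q13.1), 20 of 41 H2087 regions were members and 1 region was H1819-only. On chromosome 17 from 7 to 8 Mb (17p13.1), 20 of 44 were members and likewise 1 region was H1819-only. H3122 had many peaks in both, with 42 and 47 replicate 2 peaks. The window at 31 to 32 Mb of chromosome 6 (6p21.32 and 6p21.33) held 17 members and the adjoining 64 to 65 Mb of chromosome 11 held 14.

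A window on chromosome 10, from 17 to 18 Mb (10p13 and 10p12.33), was the most exclusive of the 5 densest, with 15 of 21 H2087 regions found in no other line. The other lists had fewer peaks there than in the rest of these 5 windows. H3122 replicate 2 had 13, replicate 1 had 0, H1819 had 1 and FOXA1 had 4. In the rest, replicate 2 had 34 to 47. The windows were picked for many members, and these counts were not compared with the genome mean of each list. The tightest 5 of its members spanned chr10:17295589-17340032, with scores of 67.9 to 322.

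The tightest run of all lay in the densest window of 11q13.1, where 5 members stood within chr11:65414210-65418133 and no peak of another list lay among them. Their scores from left to right were 195, 284, 63.7, 68.7 and 106. The other members of the run followed with gaps under 20 kb, so that 12 occupied 28.2 kb up to position 65442369. Their scores were 104, 117, 109.6, 255, 127, 232 and 61.9. In these 28.2 kb the H2087 list had 13 peaks, H3122 replicate 2 had 1, and replicate 1, H1819 and FOXA1 had 0. The run was thus a set of low to middling peaks in H2087. Members overlap no peak of another NKX2-1 list by the rule. The counts of the other lists were not compared with their genome mean over such a length. A second run in the same band, chr11:64954009-65035057, held 11 members with scores of 62.6 to 239. It was interleaved with other occupancy, with 8 replicate 2 peaks, 1 replicate 1 peak, 1 H1819 peak and 5 FOXA1 peaks. A run in 20q13.12 (chr20:43874037-43899326) had 6 members with a top score of 762 and no peak of any other list, FOXA1 included. Other runs of this size did hold such peaks. A run of 7 members in 15q26.1 held 2 replicate 2 peaks and 1 FOXA1 peak. One of 6 in 12q24.31 held 4 replicate 2 peaks, 2 H1819 peaks and 1 FOXA1 peak. Another of 6 in 17p13.2 held 1 peak of another NKX2-1 list. These counts were likewise not compared with a genome mean. Runs longer than 5 members were singled out after their values were seen.

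Among 811 bands of at least 1 Mb, 187 held no member. Band 11q13.1 was densest, with 51 members in 4 Mb, 8.88 times the mean, where H1819-only regions were at 0.506 of theirs with 4. It was followed by 1q22 with 16 members, 6p21.33 with 20, 6p22.1 with 31 and 19p13.3 with 53, at 7.43, 6.97, 5.68 and 5.35 times the mean. These bands also held many H2087 regions shared with other lines. Members were 42.1% of the 121 H2087 regions in 11q13.1, against 31.0% over all H2087 regions. In the bands that followed, in the same order, they were 34.8%, 39.2%, 39.2% and 38.4%. The 50 densest bands made up 5.10% of the length and held 21.7% of the members and 6.98% of H1819-only regions. The bands were ranked by members, which raises the share of members by construction. The share of all H2087 regions in these 50 bands was not computed.

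The bands of the NKX2-1 and FOXA1 genes held 1 and 2 members, to be read against the 31.0% of all H2087 regions that were members. Band 14q13.3, where the NKX2-1 gene lies, had 1 of its 11 H2087 regions among the members, at 0.536 of the mean density. It lay at chr14:36158603-36159237 with a score of 209, and the nearest peak of another NKX2-1 list was 27.4 kb away. In 14q21.1, the band of the FOXA1 gene, 2 of 7 H2087 regions, or 28.6%, were members. Their density was 0.340 of the mean, where the darkest stain class, to which the band belongs, had 0.304. They lay at chr14:37131478-37131885 (score 123) and chr14:37137778-37138079 (score 63.5). Replicate 2 had peaks 1.86 and 2.09 kb from them.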

How the data were processed

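Per the submitters' processing notes, Bowtie aligned the reads, the genome build was hg18 and MACS 1.4.0 called the peaks. The call threshold and the input set against each library are not given in the sources used. Each deposited list gives positions and a score per peak from 1 library. The scale of the score (negative log10 of p multiplied by 10) was inferred from its lowest values, and scores ranked peaks only within a list. These lowest values differed, at 50 in H3122 replicate 1 and 60.0 in each of the other lists. The alternative score limit of 100 given below was nevertheless set alike in several lists.

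Peaks were merged at an overlap of 1 bp, and shares were given Wilson 95% intervals, differences Newcombe intervals and two-sided Fisher's exact tests, with Python 3.11.15, numpy 2.4.6, scipy 1.17.1, pandas 2.3.3 and statsmodels 0.14.6; figures used matplotlib 3.10.9. Bands and chromosome lengths of hg18 came from circlize 0.4.16 and GenomeInfoDb 1.38.1 in R 4.3.3. Positions are 1-based. Merging, classes and distances were tested on simulated lists.

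The members and comparisons were chosen with earlier results of these data known. Regions were named by a fixed rule: the 10 highest scores, the 5 highest with FOXA1, the 5 densest windows and bands, the 5 on each side of the overlap limit, and 14q13.3 and 14q21.1. Read depth is unknown. No hg18 genes or sequence were used, so planned promoter, gene and motif counts were not made. The 4 input libraries and 7 H2087 peaks outside chromosomes 1 to 22 and X were not analysed.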

Additional observations from a re-analysis of the deposited data

Results flagged for a closer look

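The H2087 list held 4 peaks on unplaced sequence of hg18, 2 on chromosome 7 and 2 on 17, above the 3 that a count of 0 allows. Their scores ran from 123 to 851. They are 0.0277% of the list, and 0 of the 4 lacked a peak in another NKX2-1 list, so leaving them out removed no region found in H2087 only. The other lists held 0 such peaks in H3122 replicate 1, 3 in H1819, 8 in FOXA1 and 10 in H3122 replicate 2. The input libraries were not analysed.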

How the results depend on the processing

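Of 58 alternatives over 9 results, 37 gave a value counted as unchanged, 20 moved it and 1 turned its direction. The FOXA1 and light-band differences from H1819-only regions kept their direction and their side of the threshold in all 12 and all 8 alternatives, at 1.02 to 7.36 and 12.4 to 15.3 points. Leaving out H3122 replicates 1 and 2 in turn gave 4388 and 10173 regions, FOXA1 shares of 8.27% and 26.1%, median scores of 104 and 126, and FOXA1 differences from H1819-only of 2.16 and 4.34 points. Scores of at least 100 in every NKX2-1 list gave a FOXA1 share of 13.0%, a median score of 179 and 9.80% of members within 1 kb of another list. The same limit in H2087 and H1819 only gave 2326 regions, a median score of 179 and 12.9% within 1 kb; the limit itself raises the median. Merging up to 500 bp left 5.38% within 1 kb, and the midpoint rule gave 23.8%, both partly by construction, with a FOXA1 share of 10.01% under the latter. Lists of equal length gave a FOXA1 share of 26.6%. FOXA1 scores of at least 100 gave 4.84%, FOXA1 within 1 kb 15.7% and region midpoints in FOXA1 peaks 6.48%. Members within 500 bp and 5 kb of another list were 10.9% and 41.5%, and those within 1 and 20 kb of another member 15.6% and 40.6%. The FOXA1 difference from regions shared with H1819 and not H3122, 1.32 points, reversed to -2.59 (-7.88 to 1.80) with FOXA1 within 1 kb; neither passed the threshold, and the cause was not tested. Leaving out the H1819 list, chosen after seeing the data, gave 4600 regions with FOXA1 in 8.26%. The promoter window and its alternative were not run. No paired analysis was possible because only H3122 had more than 1 NKX2-1 library.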

Other observations

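The share of H2087 regions found in no other line, 31.0% over all of them, varied between bands; the bands named here were picked from 811 as extremes, after their values were seen, so that such shares are in part a result of the picking. In 20q13.33, 25 of 32 H2087 regions were found in no other line, at 3.84 times the mean density, and 5 regions there were H1819-only. In 20q11.23 the count was 14 of 23, in 3p25.3 20 of 33 and in 9q34.3 12 of 20. At the other end, 17q22 had 0 members among 27 H2087 regions, while 19 regions there were H1819-only, and 1q24.2 had 1 among 21. Copy number was not measured, and its part in these counts was not tested.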
